A study of Homo sapiens with 4 samples.

Results

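The genes described here encode the vacuolar proton pump of the lysosome and the machinery on the lysosomal surface that switches the kinase complex mTORC1 on and off. They were chosen by name: every gene symbol of the platform annotation that starts with ATP6V0, ATP6V1, ATP6AP or LAMTOR, the Rag GTPase genes RRAGA, RRAGB, RRAGC and RRAGD, and TFEB, TFE3, MITF, MCOLN1, LAMP1, LAMP2, FLCN, MTOR and RPTOR. This gave 43 genes of 19775 on the array, of which RefSeq lists 39 as protein coding, 1 as a transcribed pseudogene (ATP6AP1L) and 3 as non-coding RNAs that share a stem of the name (ATP6AP1-DT, ATP6V0E2-AS1 and LAMTOR5-AS1). Expression was measured in U937, an established human line with monocytic features from a histiocytic lymphoma, on Affymetrix HG-U133 Plus 2.0 arrays, where a probe set is a group of short probes read as 1 signal. The knock-down cells carried the shPIR#7 hairpin against PIR in the lentiviral vector pSICO-R, and the control cells carried the same vector empty, so the control had no hairpin of its own; the design text gives 1 hairpin and reports no PIR protein left on a Western blot. Both lines were kept in the same serum-containing medium. Whether either line was a clone is not given in the sources used here.

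Each condition was 1 RNA pool from 3 extractions, read on 2 arrays, so errors are SDs between 2 arrays of 1 RNA (n = 2 arrays) and no p-value for the knock-down can be had. PIR, the target, had signals of 83.4 and 91.5 against 1813 and 1882, a log2 difference of -4.15. Signals are given throughout in this order, the 2 knock-down arrays against the 2 empty-vector arrays. Measured genes are those for which, in 1 pool or both, each array read at or above its own 60th percentile of signal (the brightness limit), and 35 of the 43 members did so, among 10288 measured genes. Differences are on the scale log2(signal + 18), knock-down minus empty vector, which understates the change of dim genes. Of 6 markers of the U937 line 4 were analysed here and measured in both pools: SPI1 and LYZ, with overlapping arrays, differed by -0.13 and 0.01, and CD4 and CSF3R, with both knock-down arrays above, by 0.84 and 0.54. Of 5 markers of other lineages 3 were analysed here: CD3E and EPCAM, of T cells and epithelia, were not measured, and COL1A1, a collagen gene of fibroblasts, was dim but measured in the knock-down pool, at 137.9 and 222.6 against 166.2 and 104.8, with overlapping arrays. Of 8 monocyte maturation markers 4 were measured (ITGAM, CD36, CX3CR1 and CSF1R), and CD14, CD163, MRC1 and FCGR1A were not. All 4 had both knock-down arrays above both others, where 40.9% of all measured genes did so. The summed signal of the 8 was 12197 and 12649 in the knock-down pool against 4403 and 4600 in the empty-vector pool. Most of that sum was CD36, at 8024 and 8968 against 3413 and 3554. All 6 mitotic markers had both knock-down arrays below both others, where 31.2% of all measured genes did so, with sums of 18111 and 17436 against 31703 and 31861. In such a pool, fewer cells that express a gene and less RNA per cell cannot be told apart. Ratios of 3' to 5' signal lay between 0.960 and 1.02 for GAPDH and between 1.17 and 1.18 for ACTB, so RNA integrity was alike on the 4 arrays by this measure.

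As background, the V-ATPase uses ATP to pump protons into lysosomes, endosomes and phagosomes. Its V1 sector in the cytosol splits ATP and its V0 sector in the membrane carries the protons, and several subunits exist as isoforms made from separate genes. In a cell supplied with amino acids, the V-ATPase and the Ragulator complex load the Rag GTPases, which hold mTORC1 on the lysosome through its subunit raptor. Active mTORC1 keeps the transcription factors TFEB, TFE3 and MITF in the cytosol. When it is off, they enter the nucleus and drive lysosomal genes, including many of the genes listed here. In monocytes and macrophages this system serves digestion of engulfed material.

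Across the 35 measured members, signals were mostly somewhat higher in the knock-down pool and none was lower by a large step. The difference was positive in 29 (82.9%, against 55.2% of all measured genes) and negative in 6. The median was 0.24 on the log2 scale (1.18-fold), against 0.05 over all 10288 measured genes. In 24 members both knock-down arrays lay above both empty-vector arrays, where 40.9% of all measured genes did so, and in 1 member, LAMTOR4, both lay below, where 31.2% of all did so. Members therefore separated upwards in 68.6% of cases, against the 40.9% of all. The 24 became 22 after quantile normalization (62.9%, against 38.4% of all), 28 with median scaling (80%, against 51.9%) and 20 with all probe sets of a gene averaged (57.1%, against 35.2%). No member reached the 2-fold rule in either direction, a rule that 2.44% of measured genes met as higher and 1.1% as lower. This rule asks for a log2 difference of at least 1, all 4 array-by-array differences of at least 0.5 and a higher pool above the brightness limit. Under the same rule with a limit of 1.5-fold and a margin of 0.3, 5 members were higher (14.3%, against 8.51% of all measured genes) and none was lower (4.95% of all). These 5 were RRAGD, ATP6V0D2, ATP6V1C1, ATP6AP1 and RRAGA. Just inside the limit stood RRAGA at 0.59, and just outside stood ATP6V0D1 at 0.54 and ATP6V1D at 0.53.

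**Figure D1:**
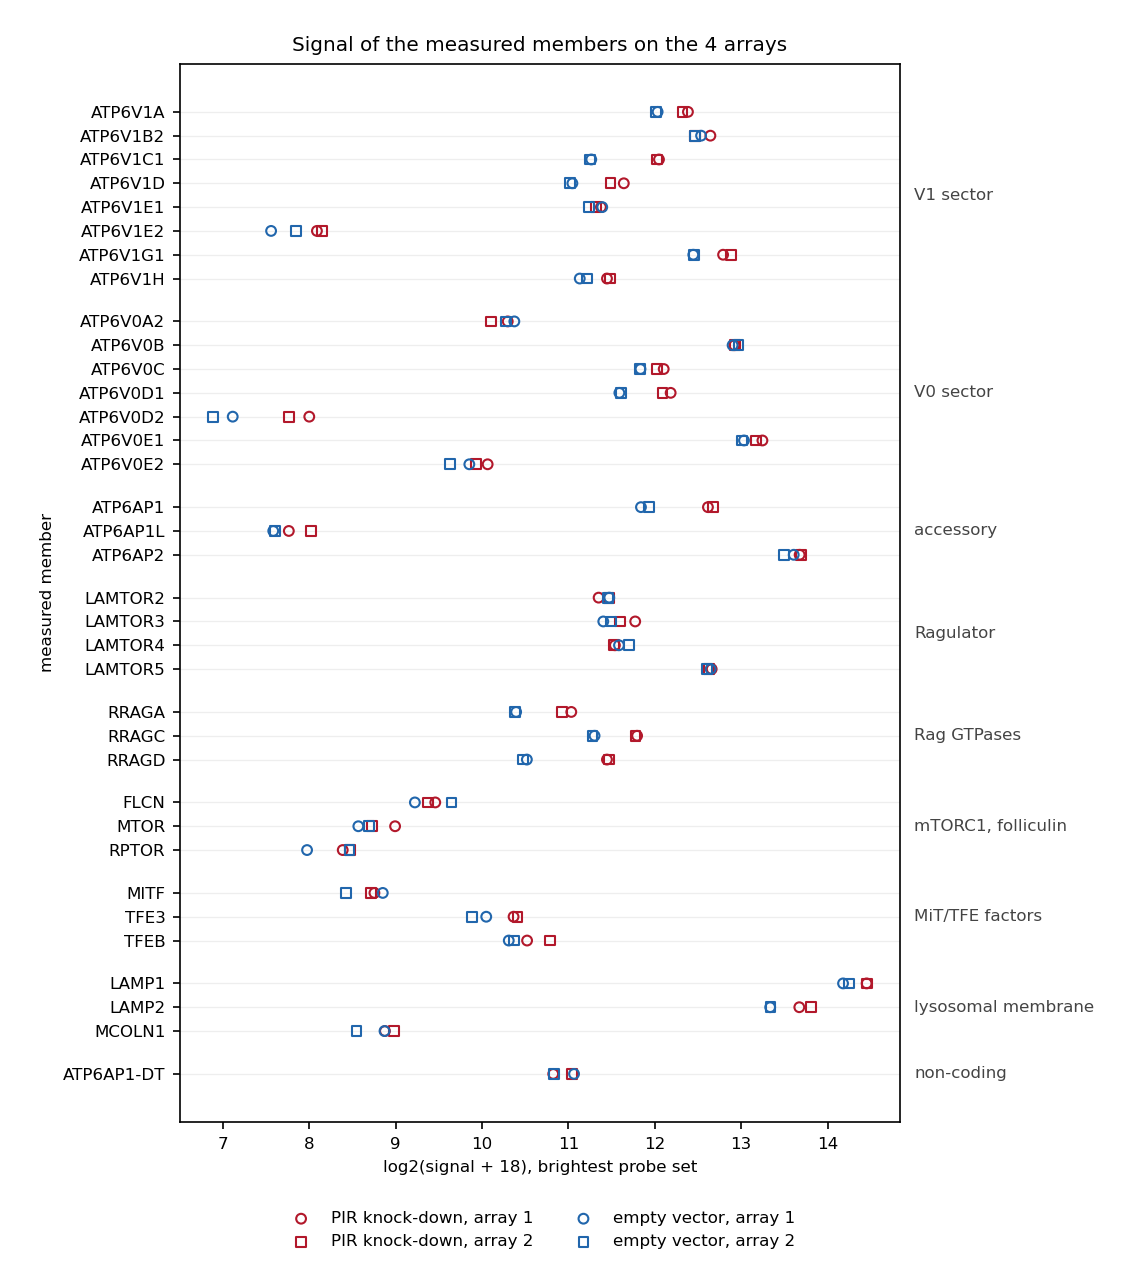
Each row is 1 of the 35 measured members, grouped by role, and the horizontal axis is log2(signal + 18) of its brightest probe set. Red marks are the 2 arrays of the knock-down pool and blue marks the 2 of the empty-vector pool. For RRAGD the red marks (signals of 2771 and 2809) stand clear of the blue ones (1448.5 and 1402), while for ATP6V0B and LAMTOR5 the 4 marks coincide. Positions of different genes are not comparable as amounts, since probe sets differ in brightness.

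Within the V1 sector, which holds the ATP-splitting head and the stalks, 8 of 12 genes were measured. All 8 differences were positive, where 55.2% of all measured genes were, and their median was 0.36 (1.28-fold). In 6, both knock-down arrays lay above both empty-vector arrays (75%, against 40.9% of all measured genes). ATP6V1C1, the C subunit that joins the head to the membrane sector, stood out: its signals were 4217 and 4147 against 2441 and 2413.5, 1.72-fold higher (0.78 on the log2 scale, pair range 0.76 to 0.80). The 4 arrays fell in 2 tight groups, and its other 3 measured probe sets gave 0.67, 0.47 and 0.64. The C2 isoform, ATP6V1C2, was not measured, with signals between 7.40 and 69.2.

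ATP6V1D, a subunit of the central stalk, had signals of 3175 and 2852 against 2095 and 2049, a difference of 0.53. The mark in this probe set's identifier warns that some probes may also read other transcripts, but a second probe set without that mark (208898_at) gave 0.47. ATP6V1A, the catalytic A subunit, read 5325.5 and 5098 against 4171 and 4116, which is 0.33 or 1.26-fold. Here the second measured probe set differed more, at 0.81 from signals of 3194 and 2843 against 1703 and 1719, so the size of the ATP6V1A difference depended on the probe set while its direction did not.

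The remaining V1 genes were mixed. ATP6V1G1, a peripheral stalk subunit, gave 7067 and 7526 against 5561 and 5609, or 0.38, although a much dimmer second probe set gave -0.11 with overlapping arrays. ATP6V1H, a regulatory subunit, gave 2772 and 2837 against 2224 and 2361 (0.29). The knock-down arrays were the higher ones for both genes. ATP6V1B2, the B subunit found in most tissues, read 6381 and 5621 against 5920.4 and 5629, and ATP6V1E1, of the peripheral stalk, read 2640.2 and 2543 against 2668 and 2392. In these 2 the groups overlapped (0.05 and 0.04), so no difference beyond the array spread was seen. ATP6V1E2, an isoform best known from testis, was dim at 253.9 and 265.7 against 170.2 and 212.5, with a difference of 0.42 and 0.10 on its second measured probe set. ATP6V1B1, of kidney and inner ear, ATP6V1G2, of brain, and ATP6V1G3, of kidney, were not measured, and none of their brightest probe sets exceeded 77.5 on any array.

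In the V0 sector, which forms the proton path, 7 of 8 genes were measured. Of these, 5 had knock-down arrays above both others (71.4%, against 40.9% of all measured genes) and the median was 0.24. The d subunit couples rotation of the stalk to the proton ring, and both its isoforms were higher. ATP6V0D1, the isoform of most tissues, had signals of 4633 and 4340.1 against 3063.5 and 3095, 1.45-fold. ATP6V0D2, an isoform of osteoclasts, kidney and some macrophages, had 237.7 and 199.5 against 120.3 and 99.8, or 1.85-fold (0.89, pair range 0.65 to 1.12). Both knock-down arrays exceeded both empty-vector arrays, but both empty-vector signals were below the brightness limit of 125.5, so this fold is uncertain, and at a 75th percentile limit the gene was not measured. A second measured ATP6V0D2 probe set gave 1.59 with signals of 117.8 and 157.1 against 53.8 and 18.4. Like the first, it passed the brightness limit only in the knock-down pool, where it was high, so it adds no separate support. A further, dim probe set gave 0.65. Of the other osteoclast-associated genes listed, ACP5 and OCSTAMP were not analysed here. DCSTAMP, which acts in cell fusion, was also higher (924.9 and 894.0 against 371.3 and 305.1, 2.61-fold). CTSK, the bone-degrading cathepsin, was not measured, and its dim signals went the other way (91.5 and 88.1 against 127.2 and 114.6, -0.36). The part of DCSTAMP and CTSK in the ATP6V0D2 result was not tested.

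ATP6V0C, which encodes the proteolipid of the proton ring, gave 4381 and 4163 against 3632.5 and 3612, 0.24, and 0.32 on its other probe set. ATP6V0B, another ring proteolipid, was level at 7740.5 and 7777 against 7629 and 7995. Its groups overlapped, and its difference of -0.0095, whose sign turned under both rescalings, was smaller than the spread between empty-vector arrays. ATP6V0E1, a small membrane subunit, gave 9698.5 and 9218 against 8362 and 8207 (0.19), and its 6 further probe sets ran from -0.34 to 0.36, with its negative values on dim probe sets. The isoform ATP6V0E2 gave 1052 and 959.4 against 906.1 and 774.7 (0.26).

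The a subunit decides where the pump is placed, and the values below do not show whether its isoforms behaved alike. ATP6V0A1, a form abundant in neurons, was not measured (65.7 to 134.3). For ATP6V0A2, the form of Golgi and endosomes, the brightest probe set read 1239.8 and 1079 against 1308 and 1223, the lowest difference of any measured member (-0.13), with overlapping arrays. Its other measured probe sets disagreed: 205704_s_at read 748.2 and 802.1 against 502.4 and 467.8, a difference of 0.66, and 235255_at gave -0.27. No direction can be given for ATP6V0A2 as a gene. TCIRG1, the a3 form of lysosomes in osteoclasts and macrophages, lies outside the name rule because of its symbol and was taken from the list of V-ATPase partners. It read 1396 and 1359.6 against 633.1 and 669.0 and met the 2-fold rule at 2.09-fold higher.

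The 3 accessory genes differed by unequal amounts. ATP6AP1, which helps assemble V0 and remains bound to it, had signals of 6257 and 6521 against 3647 and 3882, 1.69-fold higher (0.76, pair range 0.69 to 0.84). The 2 pools were far apart compared with the spread inside each, and the gene was read by 1 probe set. ATP6AP2, the prorenin receptor, which is also bound to V0, gave 13081 and 13203 against 12473 and 11514, a difference of only 0.13. ATP6AP1L, the transcribed pseudogene, was dim and gave 0.30. The divergent non-coding transcript ATP6AP1-DT, which starts beside ATP6AP1 on the other strand, read 1794 and 2088 against 2124 and 1804, with overlapping groups and -0.02, so no such separation was seen there. Assembly and regulatory partners of the pump were mixed, and 9 of the 12 listed were measured. Of these, 2 met the 2-fold rule as higher and none as lower, where 2.44% and 1.1% of all measured genes met it. Their median was 0.03, against 0.05 over all measured genes. The second gene at 2-fold beside TCIRG1 was OXR1, a TLDc-domain protein, at 2.23-fold from a dim empty-vector signal of 77.7 and 84.1. OXR1 passed the brightness limit only in the knock-down pool, where it was high, so its fold is uncertain. The lowest was WDR7, a rabconnectin subunit, at -0.24.

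**Figure D2:**
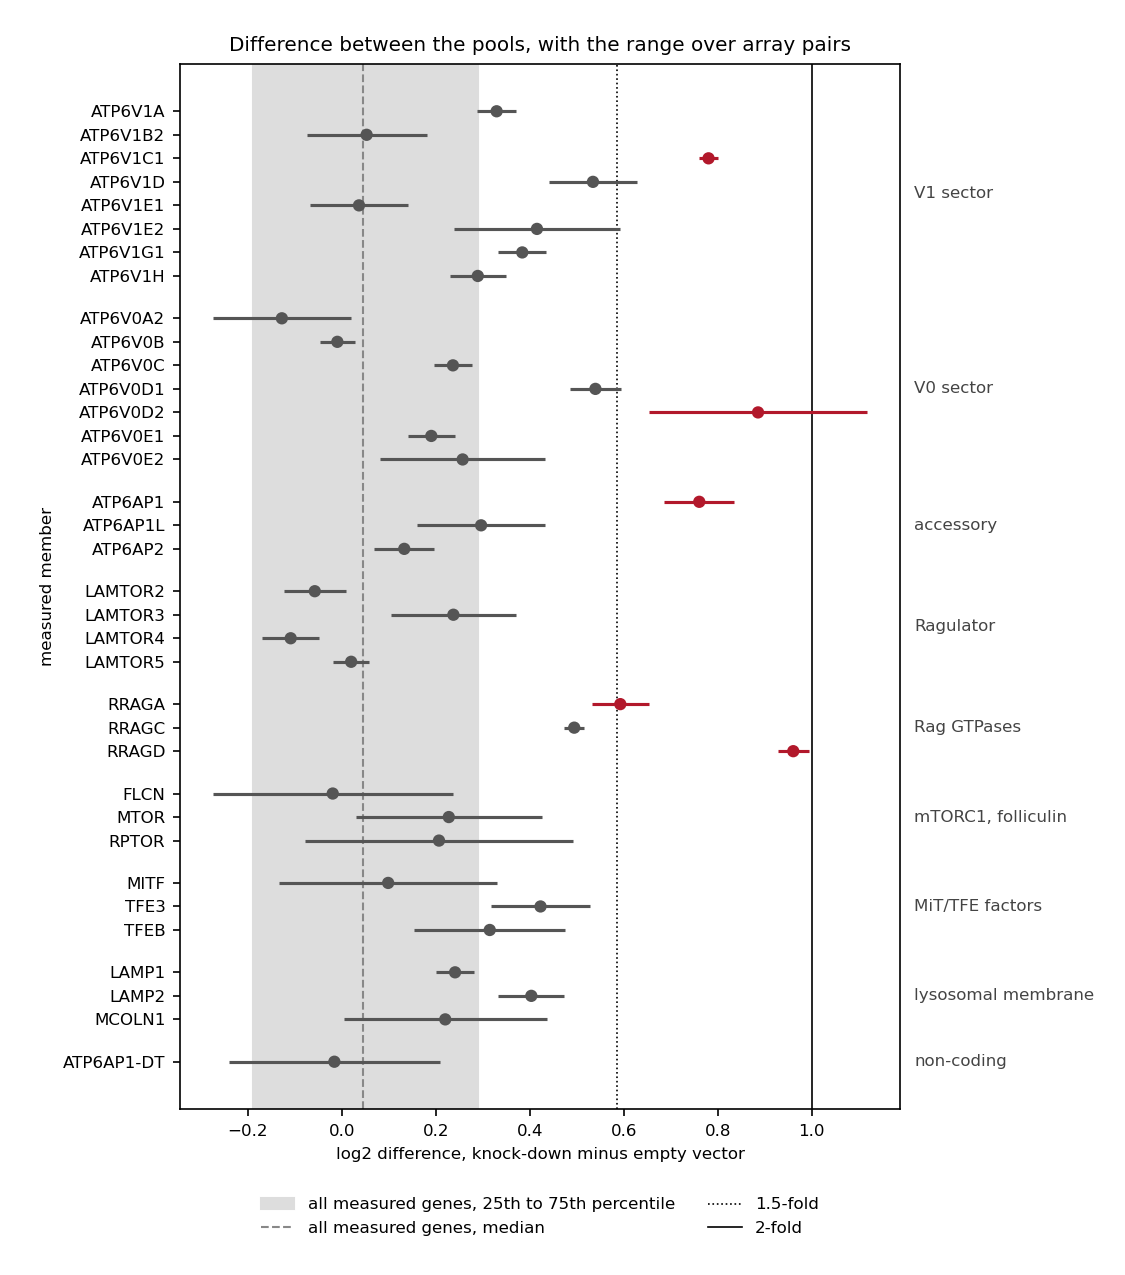
Points give the log2 difference of each measured member, knock-down minus empty vector, and bars run from the lowest to the highest of the 4 array-by-array differences. Red marks the 5 members at least 1.5-fold higher, the dotted and solid lines are 1.5-fold and 2-fold, and the grey band holds the middle 50% of all measured genes with its median dashed at 0.05. RRAGD, at 0.96, comes nearest to the 2-fold line, and the Ragulator genes lie inside the band.

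The Rag GTPases work as pairs of RRAGA or RRAGB with RRAGC or RRAGD, and they were the role group with the highest median, 0.59 (1.51-fold) over 3 measured of 4. RRAGD had the largest difference of all members at the pseudocount of 18 and on the brightest probe set. ATP6V0D2 passed it with no pseudocount (0.99 against 0.97), with probe sets averaged (1.04 against 0.84), without knock-down replica 2 (1.00 against 0.95) and without empty-vector replica 1 (1.00 against 0.98). RRAGD's signals were 2771 and 2809 against 1448.5 and 1402, 1.95-fold higher (2790.2 ± 26.7 against 1425 ± 33.1, SD, n = 2 arrays), with a pair range of 0.93 to 0.99. No array of one pool came near the other, and the second RRAGD probe set gave 0.71 from 1512 and 1570 against 957.1 and 911.5. RRAGC, the paralog that takes the same place in the pair, read 3535 and 3489 against 2507 and 2468, 1.41-fold, with a second measured probe set at 0.62. RRAGA, the partner of both, read 2077 and 1927 against 1327 and 1314, 1.51-fold, and it missed the 1.5-fold rule after quantile normalization, with a pseudocount 4 times larger and without knock-down replica 1. RRAGB, its paralog, was not measured: its signals of 134.8 and 85.0 against 132.1 and 118.4 overlapped and straddled the brightness limit. In each pair the values come from different probes, so the data do not show which paralog supplies more RNA.

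Ragulator, the scaffold that anchors the Rag GTPases to the lysosomal membrane, did not share this difference. LAMTOR1 was not analysed here. LAMTOR2 read 2591 and 2818.5 against 2823.5 and 2803 (-0.06) and LAMTOR5 read 6447 and 6312 against 6395 and 6190.2 (0.02), both with overlapping arrays. LAMTOR4 was the member whose knock-down arrays both lay below, at 2955 and 2941 against 3055 and 3310.5, a difference of only -0.11 (0.02 with median scaling). LAMTOR3, which pairs with LAMTOR2, read 3481.5 and 3078 against 2690.4 and 2861 (0.24) on its brightest probe set and 0.06 with overlap on the other. The median over the 4 was -0.02, and the differences between this group and the Rag GTPases were not tested, since each pool is 1 sample.

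Genes of mTORC1 itself and of folliculin, a GTPase activator for RRAGC and RRAGD, were dim and variable. MTOR, the kinase, read 491.2 and 404.2 against 361.1 and 395.6 (0.23), with knock-down arrays just above the others. RPTOR, which encodes raptor, read 316.5 and 335.5 against 233.2 and 335.4, and its groups overlapped, since empty-vector array 2 lay above knock-down array 1; empty-vector array 1 was the lowest of the 4. FLCN read 685.0 and 643.8 against 578.9 and 782.6 on its brightest probe set, with overlap and -0.02. A second FLCN probe set, 215645_at, was lower by more, at 62.8 and 82.6 against 186.1 and 173.4 (-1.13), and a probe set annotated to both PLD6 and FLCN, assigned to neither, gave -0.31. The brightest probe set alone thus does not settle FLCN.

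Further parts of the mTORC1 pathway, from a list made for this comparison, went both ways. Of 31 listed genes 28 were measured. The 2-fold rule took 1 as higher and none as lower, where 2.44% and 1.1% of all measured genes met it. The 1.5-fold rule took 2 as higher (7.14%, against 8.51% of all) and 1 as lower (4.95% of all). The share higher at 1.5-fold was thus no larger than among all measured genes. The median was 0.10, against 0.05 over all. DEPTOR, an inhibitory subunit of mTOR complexes, was 2.46-fold higher at 1052 and 905.0 against 412.0 and 362.9. SESN2, a stress-induced leucine sensor, was 1.66-fold higher, with empty-vector arrays at 187.3 and 314.9 that agreed poorly. SEH1L, a subunit of GATOR2 and of the nuclear pore, was the lower one, at 5293.5 and 5257 against 8745 and 8986 (-0.75). RHEB, the direct activator of mTORC1, differed by 0.09, and the Rag inhibitors of GATOR1, NPRL2, NPRL3 and DEPDC5, by -0.02, -0.41 and 0.11.

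The 3 transcription factors of the TFEB family all had positive differences, none at 1.5-fold. TFE3 read 1300.2 and 1341 against 1040.5 and 923.9, or 0.42, and 0.29 on a second probe set. TFEB read 1451 and 1745 against 1250.2 and 1302, or 0.31, and 0.12 on the other. In both genes every knock-down array was above every empty-vector array on both measured probe sets. MITF read 413.4 and 402.5 against 443.3 and 325.0 with overlapping groups (0.10), but its second measured probe set separated them, at 461.4 and 442.9 against 311.8 and 323.1 (0.49). RNA amount says nothing about where these proteins were in the cell, which was not measured.

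**Figure D3:**
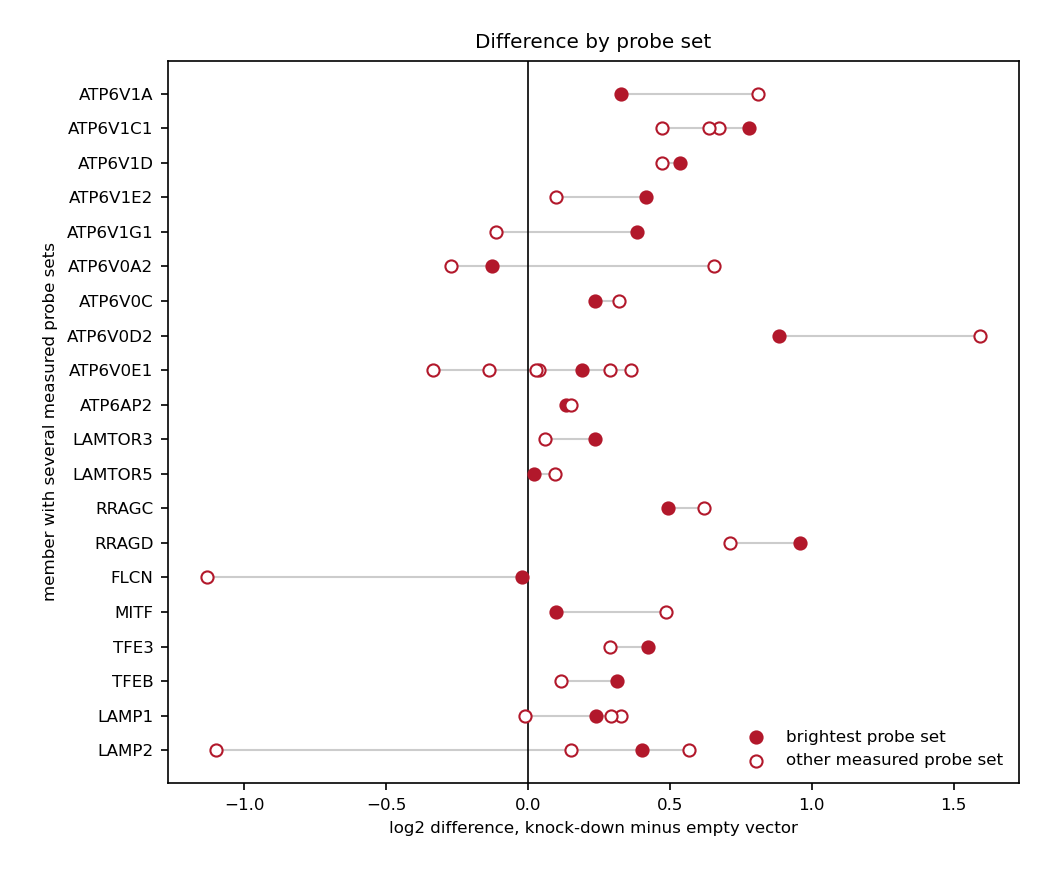
Rows are the 20 members with more than 1 measured probe set and the axis is the log2 difference, knock-down minus empty vector. Filled points are the brightest probe set used elsewhere, open points the others. Most rows lie wholly to the right of 0, ATP6V1C1, RRAGC and RRAGD among them, and LAMP2 and FLCN each have an open point below -1.

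Lysosomal membrane proteins were modestly higher on their brightest probe sets. LAMP1, a main glycoprotein of the lysosomal membrane, read 22413 and 22526 against 18542 and 19489.6 (0.24), with 0.33, 0.29 and -0.01 on 3 others. MCOLN1, the lysosomal calcium channel mucolipin, read 451.3 and 487.4 against 449.8 and 355.7 (0.22), where the lower knock-down array barely exceeded the higher empty-vector array. LAMP2 read 13046 and 14336 against 10323 and 10351.5, or 1.32-fold, and 2 of its other probe sets gave 0.57 and 0.15. The remaining one went the other way by a wide margin: 226671_at read 1340 and 1210 against 2806.5 and 2697, a difference of -1.10. LAMP2 is known for alternative last exons that give LAMP-2A, LAMP-2B and LAMP-2C; which transcript each probe set reads is not given in the sources used here. Over all members, 26 of 32 further measured probe sets had the sign of the brightest one, and 6 had the other.

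Lysosomal genes known as targets of the TFEB network, from a list made for this comparison, were also mostly higher. Of 30 listed, 24 were measured, and 23 of these had a positive difference (95.8%, against 55.2% of all measured genes). The 2-fold rule took 3 as higher and none as lower, where 2.44% and 1.1% of all met it. At least 1.5-fold higher were 8 (33.3%, against 8.51% of all). The median was 0.51 (1.42-fold) against 0.05 over all measured genes. WIPI1, an autophagy factor, was 2.71-fold higher at 593.5 and 632.1 against 198.5 and 231.5. CTSA, the protective protein cathepsin A, read 9349.6 and 9592 against 4222.5 and 4151 (2.26-fold), and NPC1, the lysosomal cholesterol exporter, read 10538 and 10283 against 4657 and 4689 (2.22-fold). OSTM1, the partner of the chloride transporter CLCN7, was the exception at 724.1 and 747.1 against 960.3 and 1138 (-0.50), while CLCN7 itself was 1.57-fold higher. The maturation and mitotic markers given above differed between the same 2 pools, and their part in these results was not tested.

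**Figure D4:**
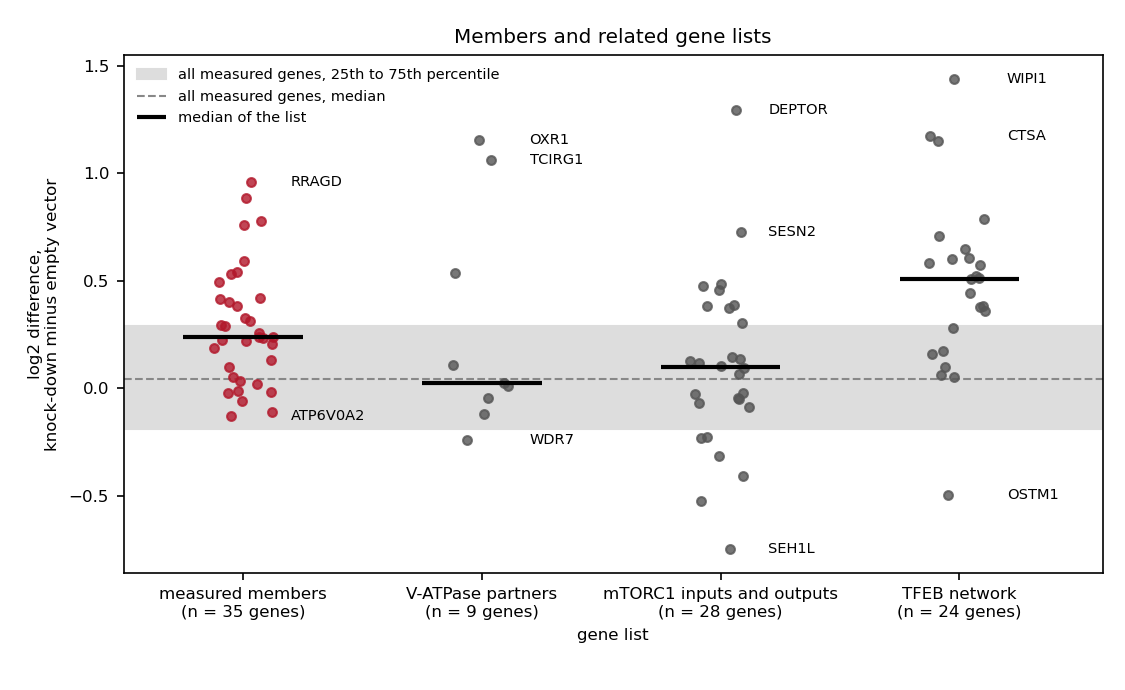
Each point is 1 measured gene, the vertical axis is its log2 difference (knock-down minus empty vector), and black bars are list medians. Grey shows the middle 50% of all measured genes and their median. The medians stand at 0.24 for the members, 0.03 for V-ATPase partners, 0.10 for mTORC1 inputs and outputs and 0.51 for the TFEB network.

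TFEB and its relatives bind an E-box, CACGTG, and favour the longer palindrome TCACGTGA, which contains it. Both were searched as exact letters in RefSeq promoters (GRCh38.p14, from 250 bases before to 50 bases after the gene start); each reads the same on both strands. Of the 43 members 32 were matched; ATP6AP1L, ATP6V0D2, ATP6V0E1, ATP6V1A, ATP6V1B2, ATP6V1C1, ATP6V1E2, ATP6V1H, LAMP2, RRAGA and RRAGD were not. CACGTG was found in 10 of 32 members (31.2%), against 8.78% of 27305 genes with a promoter entry, and TCACGTGA in 5 (15.6%) against 1.18%. Among measured genes with an entry, the shares were 8 of 24 members (33.3%) against 13.2% of 8513 genes for CACGTG, and 4 of 24 (16.7%) against 2.44% for TCACGTGA. The 4 were ATP6V0D1, ATP6V1G1, LAMP1 and MCOLN1, all with a positive difference (0.22 to 0.54). A positive difference was found in 82.9% of all measured members and 55.2% of all measured genes. Measured members with CACGTG had a median difference of 0.25 (n = 8) and those without it 0.17 (n = 16), and ATP6AP1, at 0.76, had none. Positive differences were 6 of the 8 and 12 of the 16. ATP6V0B (-0.0095) and LAMTOR4 (-0.11) had CACGTG and a negative difference. RRAGD, ATP6V0D2, ATP6V1C1 and RRAGA, which have no entry, are in neither group. A match is letters only, and no binding was measured.

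The 250 bases before the start are shown for the 4 measured members with the longer palindrome and for RRAGC, a Rag GTPase whose measured probe sets were both higher. Each is written 5′ to 3′ on the strand of the gene, with CACGTG in capitals. ATP6V0D1 is at chr16:67481158-67481407 (- strand), ATP6V1G1 at chr9:114587519-114587768 (+ strand), LAMP1 at chr13:113296989-113297238 (+ strand), MCOLN1 at chr19:7522374-7522623 (+ strand) and RRAGC at chr1:38859773-38860022 (- strand).
ATP6V0D1: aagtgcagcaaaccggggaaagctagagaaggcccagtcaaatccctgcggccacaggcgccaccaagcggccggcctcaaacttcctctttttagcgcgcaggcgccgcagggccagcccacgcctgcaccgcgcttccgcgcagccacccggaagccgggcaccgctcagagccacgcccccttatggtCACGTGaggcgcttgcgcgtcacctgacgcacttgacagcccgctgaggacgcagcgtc
ATP6V1G1: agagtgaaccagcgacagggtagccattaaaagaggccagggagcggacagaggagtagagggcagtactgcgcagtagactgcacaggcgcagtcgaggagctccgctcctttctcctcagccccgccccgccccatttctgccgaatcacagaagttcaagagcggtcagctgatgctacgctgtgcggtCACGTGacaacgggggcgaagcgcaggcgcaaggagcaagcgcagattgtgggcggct
LAMP1: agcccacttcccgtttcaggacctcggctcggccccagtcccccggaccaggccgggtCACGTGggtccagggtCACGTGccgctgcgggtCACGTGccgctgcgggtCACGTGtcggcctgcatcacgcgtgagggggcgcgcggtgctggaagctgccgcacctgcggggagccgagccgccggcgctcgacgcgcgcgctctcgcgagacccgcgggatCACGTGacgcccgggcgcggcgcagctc
MCOLN1: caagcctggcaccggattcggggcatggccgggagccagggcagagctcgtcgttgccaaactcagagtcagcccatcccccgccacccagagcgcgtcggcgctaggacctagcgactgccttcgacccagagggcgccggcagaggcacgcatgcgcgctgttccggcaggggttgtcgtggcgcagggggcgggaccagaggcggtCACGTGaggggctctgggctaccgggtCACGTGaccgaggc
RRAGC: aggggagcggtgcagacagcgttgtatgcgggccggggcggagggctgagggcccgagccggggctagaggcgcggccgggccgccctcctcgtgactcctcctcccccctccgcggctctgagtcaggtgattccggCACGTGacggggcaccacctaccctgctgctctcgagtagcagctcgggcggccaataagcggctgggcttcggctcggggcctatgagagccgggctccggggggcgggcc
In ATP6V0D1 and ATP6V1G1 the E-box begins 59 and 58 bases before the start. LAMP1 holds 5 in this window, the farthest 192 bases before the start, and its difference was 0.24. MCOLN1 holds 2, at 41 and 14 bases, with 0.22. RRAGC holds 1, at 112 bases, with 0.49, so the number of matches did not follow the size of the difference in these 5 genes.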

How the data were processed

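Total RNA from U937 cells with the PIR hairpin or the empty vector was pooled over 3 extractions per condition, biotin-labelled and hybridised to 2 arrays per pool, per the labels' protocols. The deposited values are signal intensities on a linear scale, which the authors made with GCOS according to the submitters' processing notes. No GCOS setting is given in the sources used here, and detection calls were not analysed. Each array has the same trimmed mean of 500.07, which assumes equal total signal in both pools.

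Control probe sets (62 of 54675) were left out. Of the others, the platform annotation gave 41091 a single symbol, 1801 more than 1 symbol (assigned to no gene) and 11721 none. All 43 members matched a RefSeq gene of the same symbol. The brightest probe set by mean log2 signal stood for each gene. The pseudocount of 18 averages the arrays' 25th percentiles of signal. The size rules, lists and named genes (members at 1.5-fold, the 3 largest differences each way, isoform families, MTOR, RPTOR, FLCN and MCOLN1; from each list the members at 2-fold or else the extremes) were chosen with earlier results of these data known. The size rules are not a test. They were run on simulated arrays with known changes, whose noise was the spread between the 2 arrays of a pool. That run says nothing about differences between cultures. The identity of isoform proteins was planned and not analysed here. Python 3.11.15, pandas 2.3.3, numpy 2.4.6, matplotlib 3.10.9, R 4.3.3 and limma 3.58.1 were used.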

Additional observations from a re-analysis of the deposited data

Results flagged for a closer look

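A probe set outside the comparison, 201527_at, is annotated to both ATP6V1F and LOC101927180 and was assigned to neither. ATP6V1F encodes a stalk subunit of the V1 sector. It read 12517 and 11536 in the knock-down pool against 7909.9 and 9088 in the control pool, a log2 difference of 0.50 with a pair range of 0.34 to 0.66. Both knock-down arrays were above both control arrays, which is why it is given here, and which of the 2 genes it reads was not tested.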

How the results depend on the processing

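The median of the measured members (0.24) was positive under every alternative run. It was 0.23 with no brightness limit (43 genes), 0.16 with all probe sets of a gene averaged and 0.37 with median scaling, which moved the median of all measured genes by 0.12, and 0.25 to 0.28 with single arrays left out. It was also 0.25 after quantile normalization and 0.24 with no pseudocount, with one 4 times larger and under the 75th percentile limit. The count of members at least 2-fold higher was 0, and it was 1 with median scaling (RRAGD), 1 with probe sets averaged (ATP6V0D2) and 0 to 1 with single arrays left out (ATP6V0D2 without knock-down replica 2 or without empty-vector replica 1). The count at least 1.5-fold higher was 5, and 8 with median scaling, which added ATP6V0D1, ATP6V1D and RRAGC; elsewhere it was 4 to 7, without RRAGA after quantile normalization, with the larger pseudocount and without knock-down replica 1, and without ATP6V0D2 under the 75th percentile limit. The 5 members at least 1.5-fold higher kept their sign in all 55 values under alternatives. Many of these values could not have turned. The rule that chose the 5 asks for all 4 array-by-array differences of at least 0.3, which fixes the sign with single arrays left out. Changing the brightness limit leaves each value as it was. Of the 35 measured members 24 kept their sign throughout; the exceptions were ATP6AP1-DT, ATP6AP1L, ATP6V0B, ATP6V1B2, ATP6V1E1, FLCN, LAMTOR2, LAMTOR4, LAMTOR5, MITF and RPTOR, and the cause was not tested.

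A fit with limma on the 4 arrays has an error that is that of hybridisation and says nothing about other cultures. It put 0 members past 2-fold with an adjusted p under 0.05 in either direction, with or without the replicate block. That 0 is no separate check, since the fit uses the same differences. Among members these ran from -0.13 (ATP6V0A2) to 0.96 (RRAGD), so none could pass 2-fold whatever its p-value. Over all 10288 genes the fit gave 255 higher and 119 lower with the block and 254 and 117 without. Deviations of same-numbered arrays correlated at -0.0045 over genes, so the replica numbers share only a number. Dim members, RRAGB and ATP6V0D2 among them, limit what their probe sets can show.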
